A study of Mus musculus with 2 samples.

Results

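Fzd5, Prickle1, Nog and Smurf2 are genes of Wnt and bone morphogenetic protein (BMP) signalling that carried peaks in a chromatin immunoprecipitation and sequencing (ChIP-seq) experiment for the histone deacetylase HDAC4. The members are all peaks that the authors' annotation gives to 1 of these 4 genes. They number 5 of the 229 peaks in the list, because Prickle1 had 2. The peaks had been selected on pileup, fold over input and q, so these values are given as a description, with no test.

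The samples were 1 HDAC4 ChIP library and 1 input library from C2C12, an immortalised myoblast line of the C3H mouse strain, at passages 30 to 32. The cells proliferated for 24 h in growth medium (GM) with 20% serum, carried no mutation or drug treatment named in the labels, and were fixed with formaldehyde. The ChIP used an HDAC4 antibody (sc-11418), and the input is chromatin sequenced without it. The rabbit IgG control of the protocol was not analysed here. There were no replicates, so no value here carries an error between cultures, and the intervals below cover the counting error of the ChIP pileup only. The peak caller kept 1920168 of 10903000 ChIP tags (17.6%) and 17798166 of 19038793 input tags (93.5%). A tag is 1 aligned read, and at most 1 was kept per position. Input tags were therefore scaled by 0.108 before they were set against the ChIP. ChIP-seq does not measure RNA, so the myoblast identity of the cells was not checked against marker genes.

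Wnt ligands signal through frizzled receptors, either to beta-catenin or to the planar cell polarity branch that orients cells within a tissue. BMPs signal through serine/threonine kinase receptors to SMAD proteins, and are held back outside the cell by antagonists and inside it by ubiquitin ligases. In skeletal muscle both pathways take part in the growth and differentiation of myogenic cells. Fzd5 is a frizzled receptor, Prickle1 a cytoplasmic protein of planar cell polarity, Nog (noggin) a secreted protein that binds BMPs, and Smurf2 an E3 ubiquitin ligase for SMADs and TGF-beta family receptors. HDAC4 is a class IIa histone deacetylase that is brought to DNA by other proteins.

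Part of the DNA under each of the 5 peaks is shown here. The values given below come from summits, whole peaks or wider regions, and not from these stretches alone. Each line holds coding, upstream or intronic bases of 1 peak, read 5′ to 3′ on the gene's own strand (the minus strand of the GRCm38 assembly, the build mm10, in every case). Capitals mark matches to the motifs described further on. The Fzd5 line is chr1:64734846-64735098 (coding) and the first Prickle1 line chr15:93595903-93596191, the 289 bases upstream of the RefSeq start site, which lies before the GENCODE one used below. The second Prickle1 line is chr15:93519111-93519263, intronic bases next to its summit, and the only line that does not hold the summit. The Nog line is chr11:89301729-89302020 and opens with the start codon, and the Smurf2 line is chr11:106920716-106920883 (upstream).
Fzd5: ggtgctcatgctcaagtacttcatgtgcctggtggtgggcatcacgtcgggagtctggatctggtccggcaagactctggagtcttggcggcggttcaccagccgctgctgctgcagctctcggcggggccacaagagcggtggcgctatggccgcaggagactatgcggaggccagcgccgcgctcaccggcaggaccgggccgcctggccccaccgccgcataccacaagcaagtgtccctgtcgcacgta
Prickle1 upstream: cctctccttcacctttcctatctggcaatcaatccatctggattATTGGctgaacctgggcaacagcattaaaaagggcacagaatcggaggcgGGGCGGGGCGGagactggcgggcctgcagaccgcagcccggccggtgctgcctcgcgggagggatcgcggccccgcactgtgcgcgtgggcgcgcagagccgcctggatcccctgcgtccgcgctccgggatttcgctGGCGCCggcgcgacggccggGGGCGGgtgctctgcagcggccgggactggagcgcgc
Prickle1 intronic: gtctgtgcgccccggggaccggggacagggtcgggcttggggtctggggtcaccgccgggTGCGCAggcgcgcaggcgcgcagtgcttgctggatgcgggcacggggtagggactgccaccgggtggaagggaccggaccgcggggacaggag
Nog: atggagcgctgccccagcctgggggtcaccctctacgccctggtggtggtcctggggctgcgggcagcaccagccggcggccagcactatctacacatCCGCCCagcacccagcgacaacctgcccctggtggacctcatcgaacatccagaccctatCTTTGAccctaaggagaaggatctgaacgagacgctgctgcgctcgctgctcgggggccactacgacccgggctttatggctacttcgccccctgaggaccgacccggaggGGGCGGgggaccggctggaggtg
Smurf2: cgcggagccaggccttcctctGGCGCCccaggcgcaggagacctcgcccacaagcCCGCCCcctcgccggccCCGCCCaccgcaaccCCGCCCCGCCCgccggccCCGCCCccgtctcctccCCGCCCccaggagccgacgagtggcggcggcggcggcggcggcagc

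The pileup is the number of ChIP fragments, each extended to 297 bp, that overlap the summit, the highest point of a peak. The peak of Fzd5 had a ChIP pileup of 9 tags (exact Poisson 95% interval 4.12 to 17.1), against an input background of 0.481 scaled tags. Its fold, or the pileup divided by the background after adding 1 tag to each, was 6.75 (3.45 to 12.2 over the counting interval of the pileup), with a −log10 q of 5.20. It lay near the middle of the list by fold (112 of 229) and in the lower part by pileup (159 of 229).

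The upstream peak of Prickle1 had the highest pileup among the members, 15 tags (8.40 to 24.7) in the ChIP against 0.583 scaled tags in the input. Its fold of 10.1 (5.93 to 16.3) was the tenth highest of the list, and its −log10 q was 12.3. The intronic peak of the same gene had 13 tags (6.92 to 22.2) in the ChIP against 0.737 scaled tags in the input, a fold of 8.06 (4.56 to 13.4) and a −log10 q of 8.17. Both peaks of Prickle1 thus stood in the upper part of the list by fold, the intronic one at rank 34 of 229.

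Nog had the fewest tags among the members, with 8 (3.45 to 15.8) in the ChIP against 0.513 scaled tags in the input. Its fold was 5.95 (2.94 to 11.1) and its −log10 q 3.86, close to the lowest value of the list (2.80). It ranked 166 of 229 by fold and 204 of 229 by q. Peaks beyond the authors' q cutoff of 0.01 were not analysed here.

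Smurf2 had 12 tags (6.20 to 21.0) in the ChIP against 0.539 scaled tags in the input, a fold of 8.44 (4.68 to 14.3) and a −log10 q of 8.56. By fold it ranked 21 of 229. All 5 members exceeded the input, since that chose them. The intervals of the ratio of 2 pileups (exact, conditional on their sum) held 1 in 10 of 10 pairs. The widest ratio was that of the upstream Prickle1 peak over Nog, 1.88 (0.746 to 5.11), and that of the upstream over the intronic Prickle1 peak was 1.15 (0.512 to 2.63). At this depth an order of the members could not be detected, and the intervals leave room for differences of more than 2-fold in every pair.

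**Figure D1:**
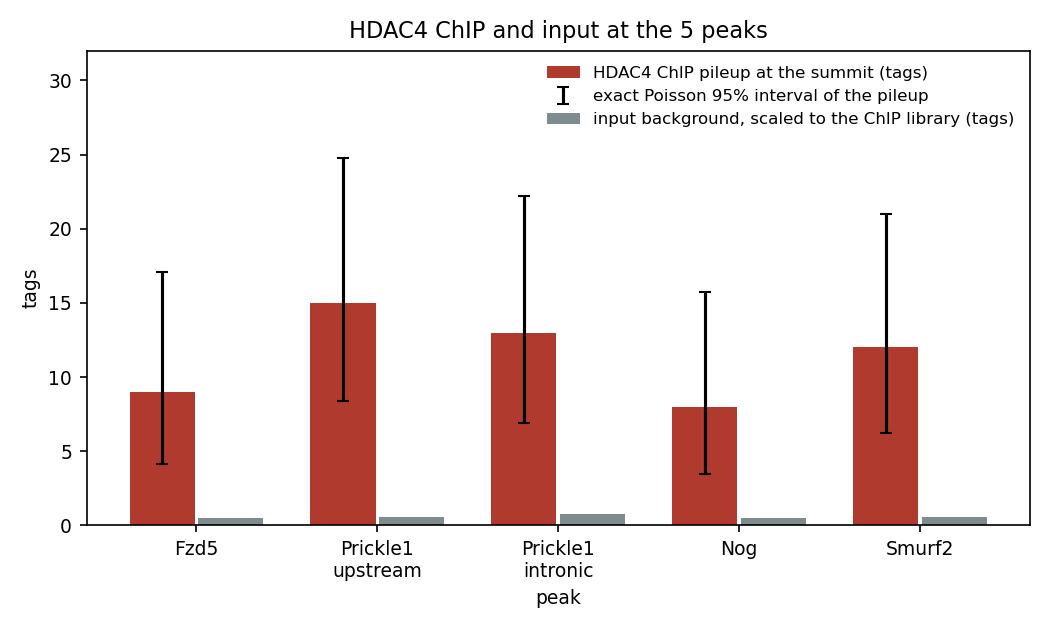
HDAC4 ChIP pileup at the summit (left bar of each pair, with its exact Poisson 95% interval) and input background scaled to the ChIP library (right bar), in tags, for the 5 peaks. ChIP pileups range between 8 and 15 tags with intervals that overlap, and each input background is below 1 scaled tag.

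The other 224 peaks had a median pileup of 11 tags (range 6 to 351) and a median fold of 6.69 (2.19 to 14.8). The members fell among the 184 other peaks of ordinary pileup, at most 5 times the list's median, whose median pileup was 10 tags and median fold 6.83. In unscaled input tags per fragment length, the background was 4.46 at Fzd5, 5.41 and 6.83 at the upstream and intronic peaks of Prickle1, 4.75 at Nog and 5.00 at Smurf2. The median over the other peaks was 6.39. The 5 backgrounds were 1.58 to 2.42 times the genome-wide level of 2.83 input tags. The 14 other peaks on chromosome 15 had a median of 11 input tags, above both Prickle1 peaks.

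The caller takes as background the highest of the input densities in the fragment length, in 1 kb and in 10 kb around the summit and over the genome. The background came back as a whole number of input tags in 1 of these windows, or as the genome level, for 229 of 229 peaks, within the rounding of the deposited fold. At Fzd5 it was 15 input tags in 1 kb, at Nog 16 in 1 kb and at the intronic Prickle1 peak 23 in 1 kb. These 3 could also be 150, 160 and 230 tags in 10 kb, which give the same density. The upstream Prickle1 peak had 182 tags in 10 kb, and Smurf2 had 5 tags within the fragment length itself. Among the other peaks the fragment window set the background in 127 of 224 (56.7%), and in 94 of the 184 of ordinary pileup (51.1%), against 1 of 5 members.

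**Figure D2:**
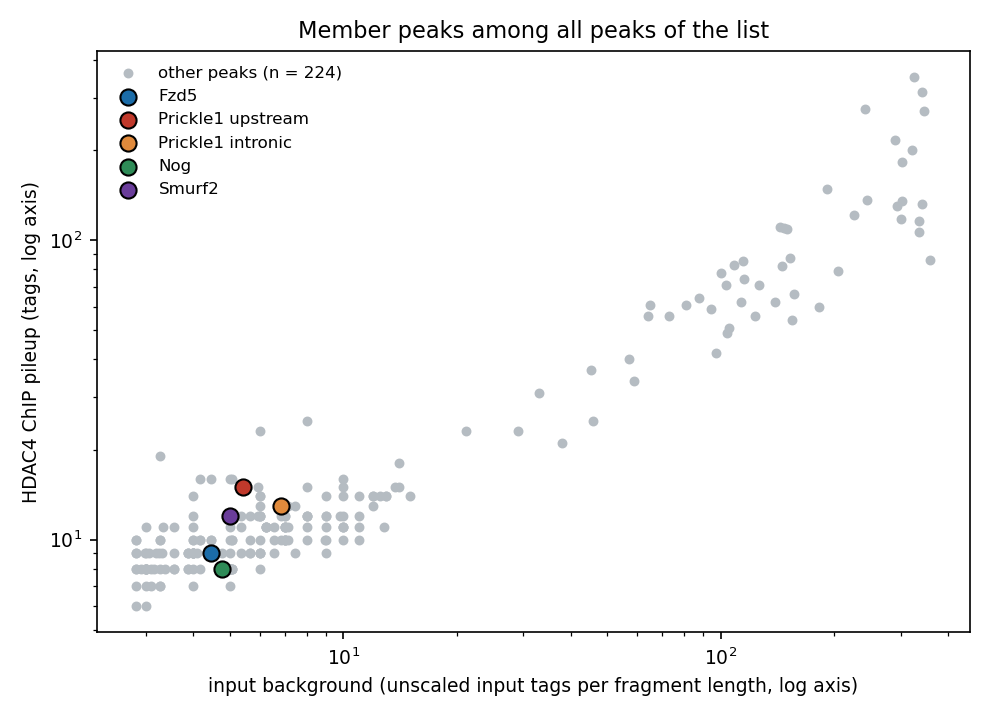
HDAC4 ChIP pileup in tags against input background in unscaled input tags per fragment length, both on log axes, for the 5 members (coloured) and the 224 other peaks (grey). The members lie in the dense group of low pileup and low input, between 4.46 and 6.83 input tags, away from the arm of peaks that are high in both libraries.

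The peaks with a gene name that lay nearest to each member, by the distance in log2(pileup + 1) and log2(scaled background + 1), belonged to genes of many kinds. The peak of Fzd5 had exactly the values of a peak in Frat2, with 9 tags in the ChIP and 4.46 unscaled tags in the input, and the next was Mdm2. Frat2 encodes a GSK3-binding protein that acts in Wnt signalling. It was not in the pathway list and is singled out after its values were seen. Its peak lies at chr19:41847780-41848076 in an exon, 318 bp past the start site. The upstream Prickle1 peak was nearest to those of Safb and Safb2 (15 tags, fold 9.75) and Upf1 (16 tags), and the intronic one to Yeats4 and Asun (13 tags and fold 7.98 each). Nog was nearest to Trim8 (8 tags, fold 5.89) and Glul (8 tags, fold 5.85). Smurf2 had the values of Adss (12 tags, fold 8.44), followed by Arhgef2 (12 tags, fold 8.42).

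Distance to a start site was not itself the rule, but members were chosen by gene name, which the annotation gives by position. None of them was classed as intergenic, against 51 of 224 other peaks (22.8%). The shares that follow are therefore not independent of the choice of members. The summit lay within 400 bp of the start site of a coding transcript in 4 of 5 members, against 120 of 216 other peaks (55.6%). Within 1 kb it was again 4 of 5, against 155 of 216 (71.8%). Among other peaks with a pileup of at most 5 times the median, the shares were 111 of 183 (60.7%) within 400 bp and 138 of 183 (75.4%) within 1 kb. With 5 peaks no difference from the rest of the list was tested. The annotation was GENCODE M21 on the same build.

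Fzd5 was the exception. Its peak, chr1:64734802-64735098 (297 bp), lay at the far end of the coding sequence, in exon 2 of 2. The summit was 2737 bp past the start site of the shorter of its transcripts (2739 bp for the longer), 1588 bp past the start codon and 167 bp before the stop codon. Of the peak, 253 bases (85.2%) were coding and 44 (14.8%) in the 3′ UTR. Of all 221 peaks with a position on the assembly, 42 lay farther from a coding start site, and so did 9 of the 49 peaks that the authors classed as exonic. The closest other start site was that of Gm38058, an unconfirmed transcript on the opposite strand, 1228 bp away.

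The start site of Fzd5 itself was not under a peak, nor were those of Nog and of the shorter Prickle1 transcript. The window of 250 bases before to 49 after the start site of the longer transcript held 75.7% G and C, 38 CpG and 10 GC boxes, more GC boxes than the same window of the other member transcripts (0 to 9). These upstream bases are shown for comparison with the peaks. They are chr1:64737751-64738000 on the minus strand, from RefSeq on GRCm38, with motif matches in capitals.
Fzd5 upstream: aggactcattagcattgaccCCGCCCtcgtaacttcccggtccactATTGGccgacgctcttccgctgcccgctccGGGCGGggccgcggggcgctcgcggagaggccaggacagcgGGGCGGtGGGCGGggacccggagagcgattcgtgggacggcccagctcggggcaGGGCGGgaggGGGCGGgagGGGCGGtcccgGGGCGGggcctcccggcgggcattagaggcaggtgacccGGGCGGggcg

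The upstream Prickle1 peak, chr15:93595594-93596191 (598 bp), spanned the start site of the longer Prickle1 transcript. Its summit lay 60 bp upstream of that start site. Of its bases 300 (50.2%) were upstream, 198 (33.1%) in the first, untranslated exon and 100 (16.7%) in the first intron. The other Prickle1 peak, chr15:93519111-93519434 (324 bp), was classed as intronic by the authors, and its summit was 76612 bp inside the longer transcript. It also lay 244 bp past the start site of the shorter Prickle1 transcript, in its first exon. There, 171 bases (52.8%) were 5′ UTR and 153 (47.2%) intron. Unlike the upstream peak, it did not reach a start site, since it began 89 bp past that of the shorter transcript. The summits were 76672 bp and the start sites 76368 bp apart, and both transcripts have 2496 coding bases. Prickle1 was 1 of 3 names given to 2 or more peaks outside intergenic sequence. The other two, 0610009L18Rik and 2700054A10Rik, were named after their values were seen.

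The Nog peak, chr11:89301729-89302202 (474 bp), lay within the single exon of this short gene. Its summit was 358 bp past the start site and 46 bp past the start codon, with 292 bases (61.6%) coding and 182 (38.4%) in the 5′ UTR. It did not reach the start site itself. A long non-coding RNA, Gm2018, lay 749 bp from the summit, and the nearest other coding gene, Ankfn1, was 88249 bp away. The Smurf2 peak, chr11:106920517-106920883 (367 bp), straddled the start site of the Smurf2 transcript that begins farthest upstream, with its summit 4 bp upstream. Of its bases 168 (45.8%) were upstream and 199 (54.2%) in the 5′ UTR. It overlapped Gm27322, a predicted miRNA gene, and ChIP-seq cannot assign a peak to 1 of 2 overlapping genes.

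**Figure D3:**
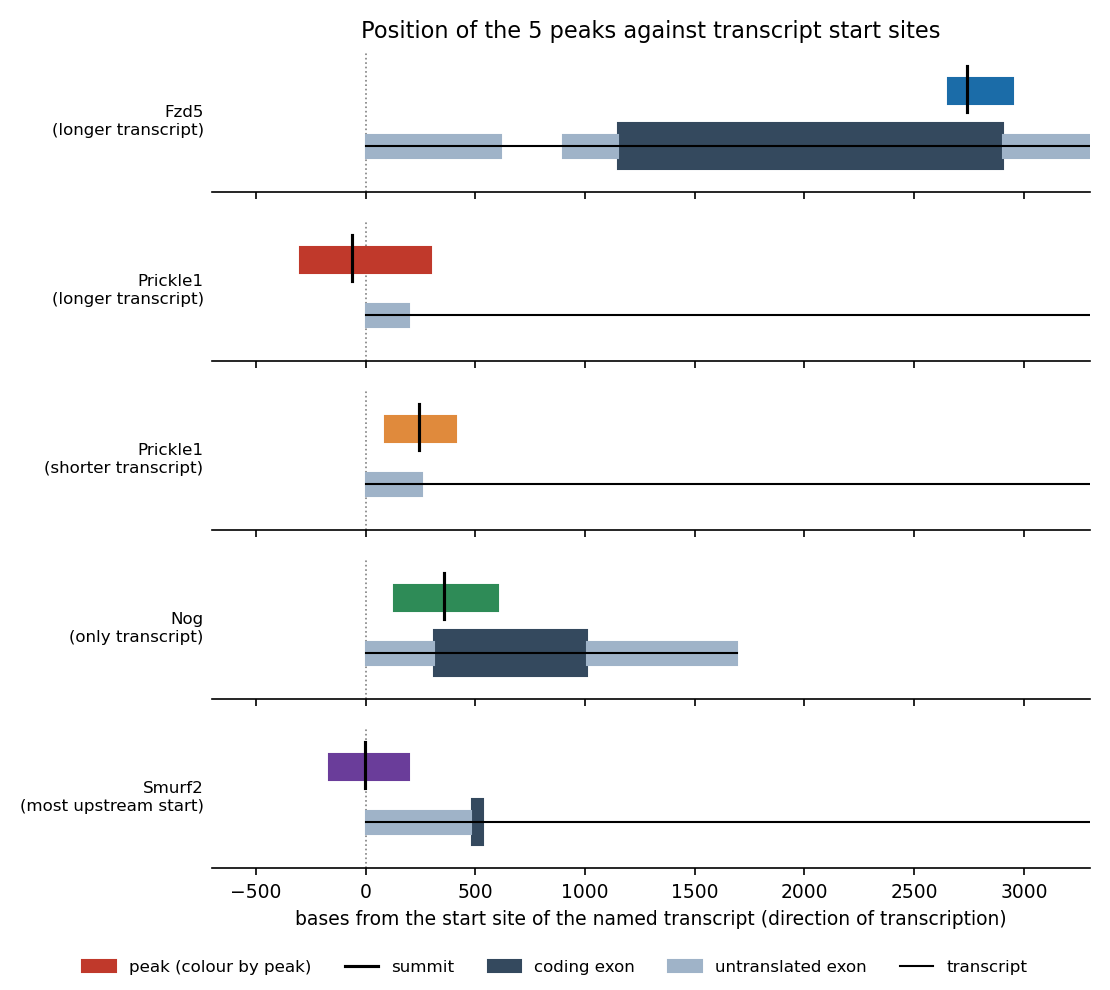
The 5 peaks (coloured bars) and their summits (black ticks) against the exons of 1 transcript each, in bases from that transcript's start site in the direction of transcription. The summits lie at −60 and 244 bp for the longer and the shorter Prickle1 transcript, at 358 bp for Nog, at −4 bp for Smurf2 and at 2739 bp for the longer Fzd5 transcript, inside the last part of its coding exon.

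Base composition was not used directly to choose the members. G and C made up 66.3% of the Fzd5 peak, 74.6% and 72.8% of the upstream and intronic Prickle1 peaks, 71.5% of the Nog peak and 80.7% of the Smurf2 peak. The median over 216 other peaks was 67.8%, and the Smurf2 peak had the highest value of all 221. CpG dinucleotides numbered 7.74 per 100 bases at Fzd5, 14.7 and 13.0 at the upstream and intronic Prickle1 peaks and 10.1 at Nog, against a median of 9.21 in the other peaks. At Smurf2 they numbered 55 in 367 bases, the ninth highest density of the list. Fzd5 was the only member below both medians. The upstream Prickle1 peak held 88 CpG, the third highest number in the list, in one of its longer peaks. The ratio of observed to expected CpG was 0.708 at Fzd5, 1.06 and 1.02 at the upstream and intronic Prickle1 peaks, 0.792 at Nog and 0.925 at Smurf2, against a median of 0.826. Among the 183 other peaks of ordinary pileup the medians were higher, at 69.4% G and C, 10.1 CpG per 100 bases and a ratio of 0.857. Nog lay close to the CpG density of that set. The part of base composition or of distance from a start site in the pileups was not tested.

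**Figure D4:**
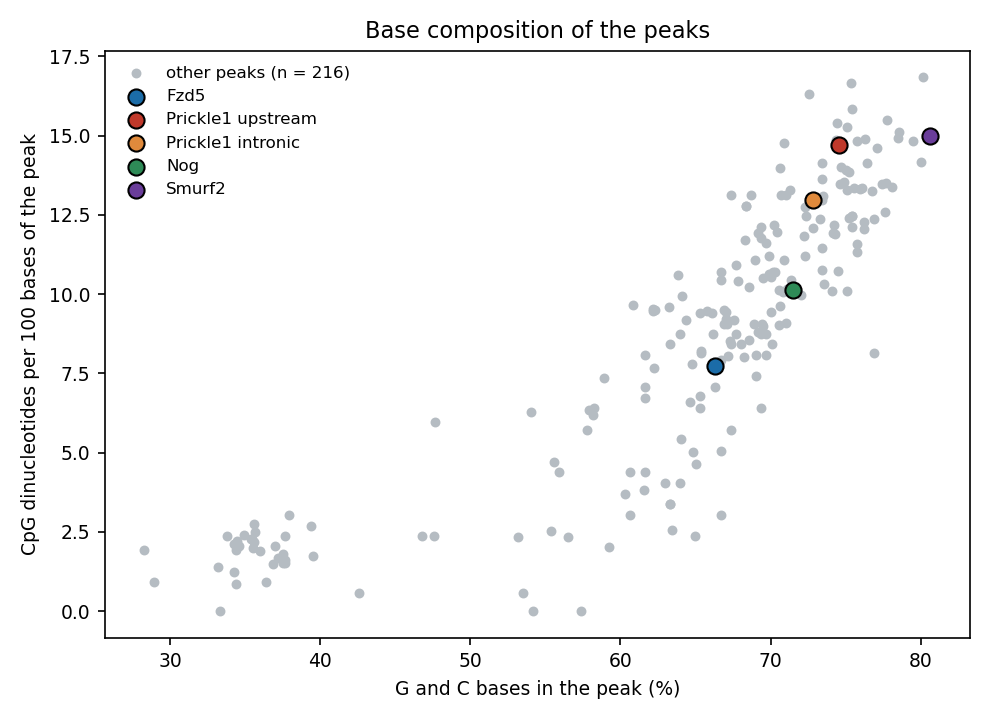
CpG dinucleotides per 100 bases against the share of G and C bases (%), for the 5 members (coloured) and 216 other peaks (grey). Smurf2 lies at the right edge with 80.7% G and C, both Prickle1 peaks lie high with 14.7 and 13.0 CpG per 100 bases, and Fzd5 is the lowest member on both axes.

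Short motifs (9 in all) were searched on both strands in a window of 100 bases to each side of each summit, and overlapping matches of a motif were counted separately. The GC box (GGGCGG), which Sp1 family factors bind, was in 3 of 5 members, in 98 of 216 other peaks (45.4%) and in 40.0% of 21938 promoters, taken as the window of the same length centred on the start of each GENCODE coding gene. Smurf2 held 8 of these matches around its summit, and the upstream Prickle1 peak and Nog 1 each. The upstream Prickle1 peak also held GGCGCC, a GC-rich element that SMAD proteins can bind, found in 24.1% of other peaks and 12.5% of promoters. The intronic Prickle1 peak held TGCGCA, the core of the NRF1 site, found in 12.0% of other peaks and 7.58% of promoters.

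The Fzd5 peak held none of the 9 motifs, in the window or in the whole peak. CTTTGA, the core bound by the TCF/LEF factors of Wnt signalling, was in no member's window, against 5.09% of other peaks and 8.76% of promoters, and occurred once in the outer part of the Nog peak. CCAAT (9.26% of other peaks), the myogenic E-box CAGCTG (10.6%), the E-box CACGTG (4.63%) and the MEF2 site (1.85%) were in no member's window either. The MEF2 site is that of the factors through which class IIa deacetylases are known to reach DNA. TGACGTCA, the CRE, was in no window of any peak, against 2.01% of promoters. GGGCGG and GGCGCC share letters and can overlap. A match is a description of letters and not of binding.

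The rest of both pathways was read from a list of 148 genes in 10 roles, all matched to the annotation. The list was drawn up with earlier results of these data known and contains the 4 members, so its counts support nothing about the pathways. In the authors' annotation column 6 of the 148 genes were named, against 0.823% of 21741 coding genes. Without intergenic peaks these were the 4 members, against 0.754% of coding genes. A peak in the gene body or 1 kb upstream by GENCODE was found for the same 4, against 0.975%.

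By role, under the GENCODE rule, Fzd5 was 1 of 18 Wnt receptors and coreceptors, and 1 of 10 frizzled genes. Prickle1 was 1 of 11 planar cell polarity genes and 1 of 3 Prickle genes. Nog was 1 of 14 extracellular antagonists of BMP and TGF-beta, and Smurf2 1 of 15 SMAD and ubiquitin ligase genes. None of 23 Wnt ligands, 13 Wnt inhibitors, 18 cytoplasmic and nuclear Wnt transducers, 18 BMP and TGF-beta ligands, 14 of their receptors and 4 BMP targets had a peak. Under the same rule 0.975% of 21741 coding genes had one. At that share most roles of this size would hold none, so the empty roles are a description only. At this depth a gene without a called peak cannot be read as unbound.

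Axin2 and Chrdl1 were named only by intergenic peaks. The peak given to Axin2, a scaffold of the beta-catenin destruction complex, lay 88656 bp past its start site with 87 tags in the ChIP against 153 unscaled tags in the input, a fold of 5.03. That given to Chrdl1, a secreted BMP antagonist, lay upstream at −88798 bp with 71 tags in the ChIP against 103 unscaled tags in the input, a fold of 5.94. Both sat in sequence that was also dense in the input, unlike the members, where input tags numbered at most 6.83.

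Within 10 kb of a start site the list gained Dvl2, a transducer downstream of frizzled, for 5 genes in all, against 1.14% of coding genes. The peak counted for Dvl2 was upstream of the Dvl2 start site, at −3366 bp, with 11 tags and a fold of 5.77. It lay inside Phf23, 120 bp past that gene's start site. Within 100 kb it reached 9 genes, against 4.34%. That added Wnt3a, a Wnt ligand (88312 bp, 8 tags, fold 6.61), and Acvr1b, an activin receptor (80035 bp, 16 tags, fold 8.18), along with Axin2 and Chrdl1. The authors gave the peak near Wnt3a to Mrpl55 and the one near Acvr1b to Grasp. The coding start sites nearest to these summits were those of Mrpl55 (−46 bp) and Nr4a1 (−167 bp), in that order. At a −log10 q of at least 5, 5 named genes were left, against 0.575%, and Nog was the member lost.

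A second deposited table lists the same 229 positions with remarks typed beside some peaks, in Italian. Beside Fzd5 they say that it is little expressed and does not change in RNA-seq, beside Nog that it is little expressed and does not change, and beside Smurf2 that it does not change. Neither Prickle1 peak carried a remark on expression. Only 7 of the 229 peaks had such a remark on no change. The remarks give no value, sample or comparison and could not be checked here. The same table placed the Nog and Smurf2 peaks in an exon, while the annotated table classed Smurf2 as upstream. By GENCODE both words fit part of the Smurf2 peak, whose summit was 4 bp before the start of its first exon.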

How the data were processed

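The members, gene list and motifs were chosen with earlier results of these data known. The submitters' notes on processing list Bowtie2, MACS2, cutadapt and CASAVA 1.8.2, and the build mm10. The authors called peaks with MACS 2.1.0.20150316 on 1 ChIP library against 1 input library (q cutoff 0.01, tag size 50 bp, effective genome size 1870000000 bp, 1 tag per position) and annotated them. The deposited table holds the pileup signal in tags, the fold ratio over input, −log10 p and −log10 q. In the second deposited table these had lost their decimal points, and these columns are only scores. For 229 of 229 peaks they returned after division by a power of 10, so the first table was used.

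The background is (pileup + 1)/fold − 1. With it as the mean of a Poisson distribution, the tail beyond the pileup returned the deposited −log10 p within 0.000142. Sequence came from GRCm38.p6 and start sites from GENCODE M21. For 8 peaks, on unplaced sequences, neither was used. The genes named are the members, list genes with a peak, the 2 nearest peaks to each member in pileup and background, and neighbouring genes. Pileup intervals take the summit as given, although it is the highest point of the peak. Fold intervals take the input background as fixed and leave out its counting error. Scripts were tested on simulated data. Alternatives were the pseudocount, reference point, annotation, thresholds and sequence window. The work used Python 3.11.15 with pysam 0.24.0, scipy 1.17.1, pandas 2.3.3, numpy 2.4.6 and matplotlib 3.10.9.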

Additional observations from a re-analysis of the deposited data

How the results depend on the processing

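Without the pseudocount of 1 tag, the input background became 1.33 scaled tags at Fzd5, 1.48 and 1.61 at the upstream and intronic Prickle1 peaks, 1.34 at Nog and 1.42 at Smurf2. Computed this way it was a whole number of input tags in a window for 0 of 229 peaks, against 229 of 229 with the pseudocount. Measured from the middle of the peak, Smurf2 lay 15 bp past its start site, where the summit lay at −4 bp. Counting non-coding transcripts, the start site nearest to the Fzd5 summit was that of Gm38058, at −1228 bp, where Fzd5 itself gave 2737 bp. Within 100 bases of the summit the upstream Prickle1 peak held 78.6% G and C, against 74.6% in the whole peak. Over whole peaks, members with a match numbered 2 for the NRF1 core and 2 for the SMAD element (1 each in the window), and 1 each for CCAAT and the TCF/LEF core (0 in the window). Of the 216 other peaks, 17.6%, 31.5%, 18.5% and 12.5% held these motifs anywhere in the peak, in that order. A −log10 q of at least 5 kept 4 of the 5 peaks and lost Nog, and a fold of at least 5 kept all 5. Among the 224 other peaks the lower quartile was 4.96 for −log10 q and 5.86 for fold, so most passed each cutoff too. The count of pathway genes without intergenic peaks was added after seeing the data. Within 100 bases of the summit Nog held 8.46 CpG per 100 bases (17 in all, against a median of 19 in the other peaks). The whole Nog peak held 10.1, above the median of 9.21 in the other peaks and close to the 10.1 of those with ordinary pileup. No paired analysis was possible because there is 1 library of each kind. With 8 to 15 tags a peak and no replicate, depth limits every comparison among the members.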
